A study of Homo sapiens with 4 samples.

Results

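Genes of the stathmin family, the neuronal microtubule-associated proteins and the neuronal tubulins were compared between H1 human embryonic stem cells carrying MEK5DD and WT H1 cells. The set was fixed by name and holds 10 genes: STMN1, STMN2, STMN3 and STMN4, MAP2, MAP1B, MAPT and DCX, and TUBB3 and TUBB2B. Of these, 9 are among the 17472 genes of the deposited table, and STMN4 was not analysed here. The genes were chosen by role and selected on measured values to the extent that differences between MEK5DD and WT in normalised count, those of STMN2 and MAP2 among them, were already known. Their fold changes and p-values therefore describe them and support nothing beyond that.

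H1 is an established human embryonic stem cell line, and all cells were grown in E8, a defined medium with insulin, FGF2 and TGF-beta. Each group has 2 libraries of poly(A) RNA. The MEK5DD cells are 1 lentivirally transduced, puromycin-selected line that overexpresses MAP2K5 with aspartate in place of its activating residues. WT is the label of the cells without this construct. MAP2K5 (MEK5) is the kinase that activates MAPK7 (ERK5). There is no group with virus and puromycin but no MEK5DD, so delivery, selection and MEK5DD cannot be told apart. The labels do not say that replicates were separate cultures, so the p-values reflect only how far these libraries scatter, part of which may be technical.

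Microtubules are built from dimers of alpha- and beta-tubulin, and the gene copies of each tubulin (isotypes) differ mainly in the acidic tail at the end of the protein. Stathmins bind free tubulin dimers and favour disassembly. STMN1 is soluble and common in dividing cells, whereas STMN2, STMN3 and STMN4 carry a membrane anchor and are mainly neuronal. MAP2, MAP1B, MAPT (tau) and DCX (doublecortin) bind the microtubule wall and are used as markers of neurons and of their growing or migrating stages, and TUBB3 and TUBB2B are the beta-tubulins best known from developing neurons.

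The libraries held 14908486 to 17628945 reads recovered from the deposited values. The MEK5DD pair differed more (chi-square per degree of freedom 6.11) than the WT pair (1.88), and pairs across the groups gave 12.6 to 16.3. The introduced gene MAP2K5 had normalised read counts of 344 and 315 in WT and 3382 and 3558 in MEK5DD, as its label says. All 14 pluripotent stem cell markers examined were listed, with summed normalised counts of 196600 and 195220 in WT and 194360 and 187420 in MEK5DD. Of the 14, NANOG was higher (0.26 on the log2 scale), SOX2 (-0.20) and TERF1 (-0.28) were lower, and 11 were not called. These 3 were named on their values, and removing either WT library ended each call (adjusted p from 0.146 to 0.486). Of 15721 genes tested, 14.2% were called, 7.69% higher and 6.47% lower in MEK5DD. A call is an adjusted p under 0.05 from limma on log2(normalised count + 1), adjusted over all genes tested.

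The near-identical beta-tubulins matter for reading the values, so their coding ends are shown first. TUBB2A, a close neighbour and copy of TUBB2B on chromosome 6, is not one of the 10 genes. The last 60 coding bases, stop codon included, are given 5′ to 3′ on the coding strand of GENCODE v29 transcripts in GRCh38, at chr6:3153863-3153922 and chr6:3224751-3224810 (minus strand) and chr16:89935745-89935804 (plus strand). Capitals mark bases that differ from the other gene of the pair for TUBB2A and TUBB2B, and from TUBB2B for TUBB3, counted back from the stop codon without gaps.
TUBB2A: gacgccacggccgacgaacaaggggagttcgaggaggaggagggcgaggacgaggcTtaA
TUBB2B: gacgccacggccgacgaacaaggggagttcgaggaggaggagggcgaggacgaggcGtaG
TUBB3: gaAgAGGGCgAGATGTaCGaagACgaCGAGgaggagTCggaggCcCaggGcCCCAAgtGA
The tails of TUBB2A and TUBB2B differed at 2 of 60 bases, and that of TUBB3 differed from TUBB2B at 32. Over the 1338 coding bases TUBB2A and TUBB2B differed at 25, an identity of 98.1%. Of the 75-base windows in the longest coding transcript, 49.5% for TUBB2B and 60.4% for TUBB2A were also present in another gene's transcript, mostly in each other. Reads of this pair could thus be split or lost in counting, and their values are uncertain to that extent. For TUBB3, 79.4% of windows were shared, all of them with AC092143.1, a gene on the same strand whose exons cover 35.8% of the exon bases of TUBB3 and which is not listed in the table. No such window was shared for STMN1, STMN2, STMN3, MAP2, MAP1B or DCX, and 0.0593% were for MAPT.

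Among the stathmins, STMN2 was the gene that changed. It rose in MEK5DD cells from a low level to one above that of STMN3 per kilobase of exon, while STMN1, the most abundant of the 3 by that measure in every library, and STMN3 did not pass the test. STMN2 (chr8:79610814-79666175, plus strand) had normalised read counts of 87.2 and 80.2 in WT and 1183 and 1237 in MEK5DD. The groups lay far apart, and each library stayed close to its partner. The log2 fold change was 3.84 (SE 0.10; 95% confidence interval 3.61 to 4.07; adjusted p = 2.37e-10), a 14.3-fold rise and the 6th largest of the 15721 genes tested. It rested on 99 recovered reads in WT replicate 1 and 1302 in MEK5DD replicate 1.

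STMN1 (chr1:25884181-25906991, minus strand), the stathmin of dividing cells, had 10439 and 10225 in WT and 11945 and 10831 in MEK5DD. Both MEK5DD libraries were above both WT libraries, by less than the gap between the MEK5DD libraries in the nearer case. The log2 fold change was 0.14 (95% confidence interval 0.00 to 0.28; adjusted p = 0.175). STMN3 (chr20:63639705-63657682, minus strand), a neuronal stathmin, had 598 and 607 in WT and 757 and 655 in MEK5DD, again without overlap. Its log2 fold change was 0.22 (95% confidence interval 0.02 to 0.42; adjusted p = 0.134). Leaving out MEK5DD replicate 2 brought both past the threshold, at an adjusted p of 4.53e-06 for STMN1 and 7.28e-04 for STMN3, in a fit where the lone MEK5DD library is assumed to vary like the WT pair.

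Levels of different genes were compared per kilobase of exon. STMN2 made up 1.94% and 1.82% of the summed stathmin level in WT and 18.8% and 21.2% in MEK5DD. STMN1 held 87.7% and 87.5% in WT and 71.8% and 70.1% in MEK5DD. The summed level per kilobase was 1901 and 1867 in WT and 2658 and 2470 in MEK5DD. The shares depend on gene length: STMN1 has 6261 exon bases in all but 1712 in its longest coding transcript. With transcript lengths, a choice made after seeing the data, the STMN2 share was 0.614% and 0.576% in WT and 6.80% and 7.77% in MEK5DD.

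**Figure D1:**
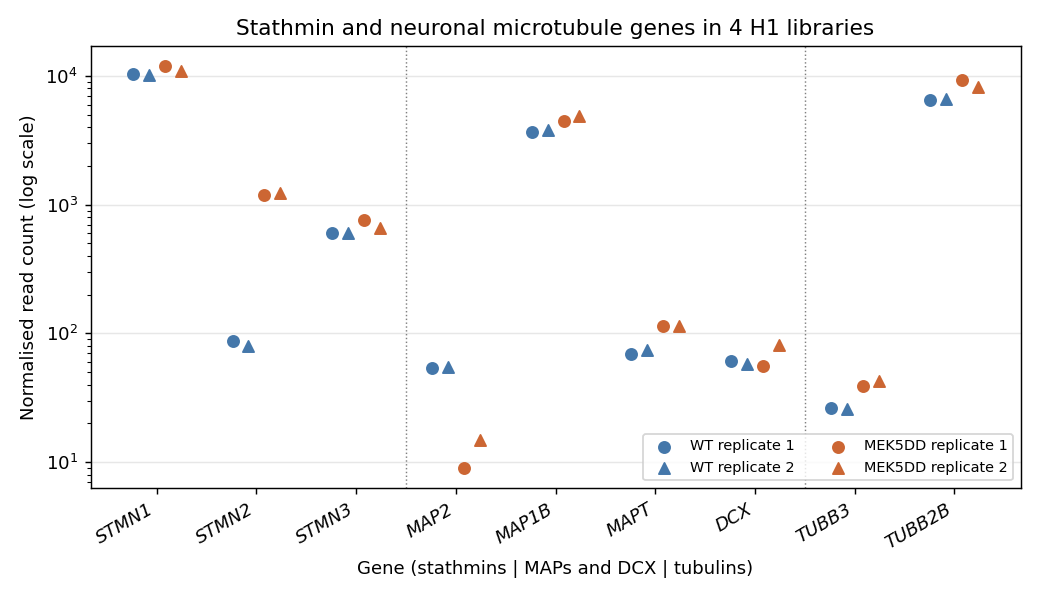
Normalised read counts (log axis) of the 9 listed genes, with 1 point per library: blue for WT, orange for MEK5DD, circles for replicate 1 and triangles for replicate 2. STMN2 is higher and MAP2 lower in both MEK5DD libraries by a distance that exceeds every gap within a group, and DCX is the gene whose groups overlap.

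The microtubule-associated proteins did not move as one. MAP2 fell, MAP1B and MAPT rose by less, and DCX was not called. MAP2 (chr2:209424058-209734118, plus strand), the classical marker of dendrites, had 53.7 and 55.2 in WT and 9.09 and 14.95 in MEK5DD. Both MEK5DD libraries were well below WT but apart from each other, at 10 and 15 recovered reads. The log2 fold change was -2.13 (SE 0.32; 95% confidence interval -2.82 to -1.44; adjusted p = 8.93e-04), a 4.37-fold difference and the 17th lowest value of all genes tested. At this depth the size of the fall is known only within that interval, and the pseudocount moved it, to -1.66 at a pseudocount of 8.

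MAP1B (chr5:72107234-72209570, plus strand), the microtubule-associated protein of growing axons, had 3679 and 3783 in WT and 4432 and 4910 in MEK5DD. The groups did not overlap, and the log2 fold change was 0.32 (SE 0.07; adjusted p = 0.00713), a 1.25-fold rise. MAP1B was no longer called when WT replicate 1 or WT replicate 2 was left out, at an adjusted p of 0.121 and 0.0643. The same held when limma was run with no trend of variance on mean (adjusted p = 0.159). MAPT (chr17:45894382-46028334, plus strand), which encodes the axonal protein tau, had 68.7 and 73.9 in WT and 114 and 115 in MEK5DD. The MEK5DD libraries were nearly equal, and the log2 fold change was 0.68 (SE 0.16; adjusted p = 0.0165), a 1.60-fold rise. MAPT was no longer called when WT replicate 1 was left out, at an adjusted p of 0.0816, or under DESeq2, at 0.102.

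DCX (chrX:111293779-111412429, minus strand), the marker of migrating young neurons, had 60.8 and 58.3 in WT and 56.3 and 81.7 in MEK5DD. One MEK5DD library was below both WT libraries and the other above them. The log2 fold change was 0.19 (95% confidence interval -0.29 to 0.66; adjusted p = 0.634), and it was -0.08 when MEK5DD replicate 2 was left out. A change of the size of MAPT lies just outside that interval.

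By level per kilobase of exon, MAP1B stood far above the other 3, at a mean of 295 in WT and 370 in MEK5DD. In WT the others lay close together, with 5.84 for DCX, 4.78 for MAPT and 4.71 for MAP2. In MEK5DD the order below MAP1B was MAPT (7.68), DCX (6.77) and MAP2 (1.04). The exon length of MAPT (14920 bases) is more than its longest coding transcript (6816 bases), so its place among these low genes depends on the length used.

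**Figure D2:**
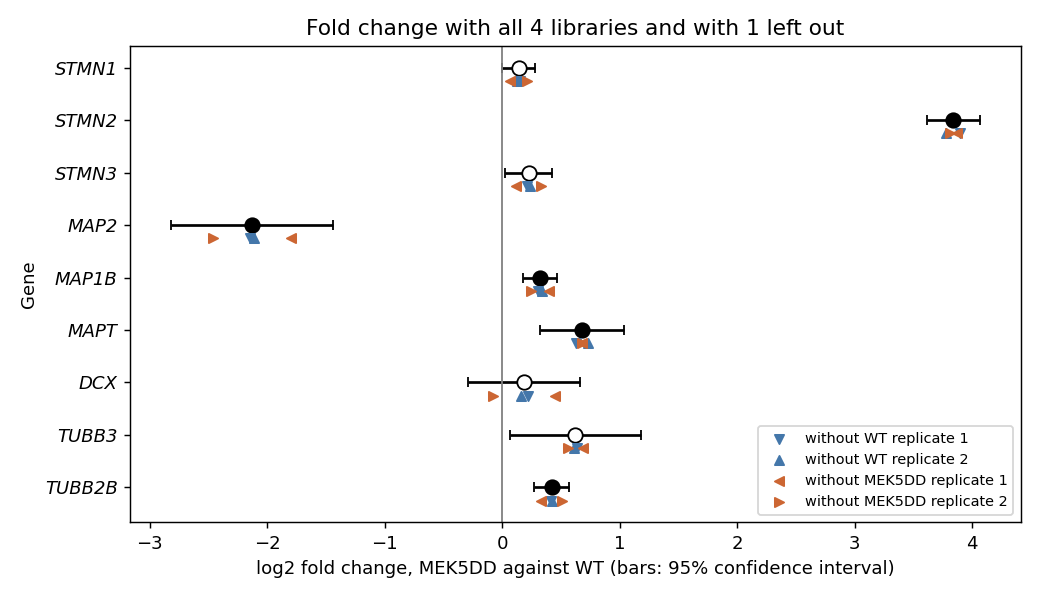
Log2 fold change of MEK5DD against WT for the 9 genes (circles, filled where the adjusted p is under 0.05), with 95% confidence intervals as bars and, below each, the values with 1 library left out (triangles). STMN2 at 3.84 and MAP2 at -2.13 stand apart from the other 7, which lie between 0.14 and 0.68, and DCX alone crosses 0 when a library is left out.

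Of the neuronal tubulins, TUBB2B rose and TUBB3 was not called. TUBB2B (chr6:3224261-3231730, minus strand), an abundant isotype here, had 6529 and 6572 in WT and 9316 and 8250 in MEK5DD. The groups did not overlap, and the log2 fold change was 0.42 (SE 0.07; adjusted p = 0.00138), a 1.34-fold rise. With no variance trend in limma TUBB2B was not called (adjusted p = 0.116). PSMG4, a listed gene on the other strand, covers 7.93% of its exon bases, and whether reads were counted by strand is not stated in these sources.

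TUBB3 (chr16:89921392-89938761, plus strand), the beta-tubulin stained as a neuron marker, had 26.4 and 26.04 in WT and 39.1 and 42.9 in MEK5DD. The groups did not overlap, but at 25 to 43 recovered reads a library the log2 fold change of 0.62 (95% confidence interval 0.06 to 1.18) did not pass (adjusted p = 0.136). Reads shared with AC092143.1 may not have been assigned to TUBB3, so its low level is that of the reads counted. Whether this touched the comparison was not tested.

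In all, 4 of the 9 genes were called higher and 1 lower, against 14.2% of all genes tested, and 8 of the 9 had groups that did not overlap, against 56.2%. The median log2 fold change of the 9 was 0.32, and -0.002 over all genes tested. Because the genes were chosen with this contrast known, nothing is read from these counts.

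The genes most like STMN2 over the 4 libraries, by Euclidean distance of centred log2 values, were ABHD12B (distance 0.217), RHOB (0.250) and AC100868.1 (0.292). ABHD12B rose by 3.89 and RHOB, a small GTPase gene of the actin cytoskeleton, by 3.64 on the log2 scale. AC100868.1 had 7.93 and 9.37 in WT and 134.5 and 160.5 in MEK5DD. It was below 10 in both WT libraries, so it passed the filter on low values only through MEK5DD. For MAP2 the closest genes were the synapsin gene SYN3 (distance 0.266), IKZF3 (0.293) and SOX21 (0.368), with log2 fold changes of -1.89, -1.93 and -2.28. IKZF3 lay at 19.4 normalised counts or fewer and reached 10 only in WT. These distances over 4 libraries largely restate the size of the difference.

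Other microtubule genes are given beside the 9. They were listed by role, but with earlier results of this contrast known, so they are not an independent background. Of 117 tested, 14 were higher and 7 lower (17.9%, against 14.2% of all genes), with a median log2 fold change of 0.00. DESeq2 called 13 of them higher and 0 lower, with 9 lower at an unadjusted p under 0.05, so the falls among these genes rest on limma and edgeR (7 each). The counts by role were not tested against each other. Among 15 other tubulins 4 rose and 1 fell (median 0.16), and among 24 motor genes and motor regulators 4 rose and 1 fell (median 0.10). Of 22 other lattice-binding proteins 1 rose and 0 fell by limma, and also by edgeR and DESeq2 (median -0.04), and 3 were higher and 3 lower at an unadjusted p under 0.05 in limma. Of 21 end-binding proteins 1 rose and 2 fell (median -0.03), and of 11 severing and depolymerising proteins 1 rose and 1 fell (median -0.07). Of 24 tubulin folding and modifying enzymes 3 rose and 2 fell (median -0.01).

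TUBB2A, the copy of TUBB2B, had the largest tubulin rise. Its normalised counts were 1055 and 999.9 in WT and 2232 and 1878 in MEK5DD, a rise of 0.99 on the log2 scale (SE 0.09; adjusted p = 1.41e-05). The fold of TUBB2A (95% confidence interval 0.81 to 1.18 on the log2 scale) was above that of TUBB2B (0.27 to 0.57). The effect of reads shared between these copies on either fold was not tested. The alpha-tubulin gene TUBA1A, the isotype best known from developing brain, had 5588 and 5422 in WT and 9432 and 8710 in MEK5DD (0.72 on the log2 scale, SE 0.06; adjusted p = 1.30e-05). TUBB4A, a brain isotype, was the tubulin that fell, from 162 and 191 to 138 and 94.7 (log2 fold change -0.62). Its adjusted p was above the threshold when WT replicate 2 (0.156) or MEK5DD replicate 2 (0.101) was left out, and under DESeq2 (0.111). TUBA1C (0.48) and TUBB6 (0.53) also rose, and both were picked for naming on their values.

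The major isotypes of these cells, TUBB and TUBA1B, had log2 fold changes of -0.02 (95% confidence interval -0.15 to 0.11) and -0.04 (-0.17 to 0.08); both were picked for naming on their values. Per kilobase of exon, TUBB held 62.4% and 62.2% of the beta-tubulin level in WT and 54.5% and 55.5% in MEK5DD. TUBB2B held 15.6% and 16.1% in WT and 19.2% and 18.6% in MEK5DD, and TUBB2A 3.20% and 3.11% against 5.85% and 5.38%. The share of TUBB6 was 5.8% and 6.0% in WT and 7.64% and 7.59% in MEK5DD. TUBB3 held 0.0313% to 0.0479% over the 4 libraries, and 0.0579% to 0.0878% with transcript lengths. Among alpha-tubulins the leading gene was TUBA1B in WT (47.5% and 47.3%) and TUBA1A in MEK5DD (43.4% and 42.5%). With transcript lengths TUBA1B was the larger in all 4 libraries, at 41.8% and 42.8% against 41.2% and 40.2% for TUBA1A in MEK5DD. Of the 75-base windows in their longest coding transcripts, 77.2% for TUBA1B, 36.6% for TUBA1A and 34.3% for TUBA1C were also present in other genes, one another included. Exons of TUBA1B, TUBA1C and TUBA1A overlap those of other genes on the opposite strand over 36.6%, 24.96% and 14.3% of their bases. The order of these levels is uncertain to that extent.

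**Figure D3:**
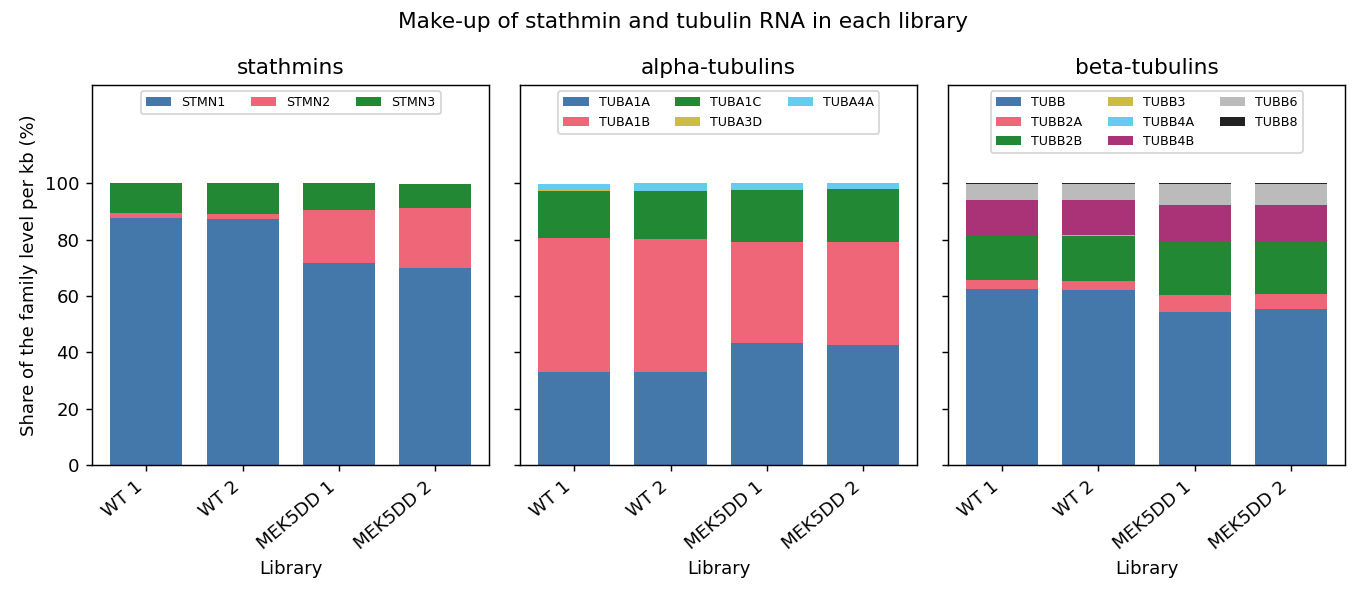
Stacked bars give each gene's share (%) of the summed level per kilobase of exon for the 3 listed stathmins, 5 alpha-tubulins and 8 beta-tubulins in each of the 4 libraries. STMN2 widens from under 2% in WT to about 20% of the stathmin level in MEK5DD. Within the beta-tubulins TUBB2A, TUBB2B and TUBB6 widen as TUBB narrows.

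Promoters are shown for TUBB2B and TUBB2A, neighbours that are alike in coding sequence. Any part of the promoters in the different rises of these genes was not tested. The windows run from 250 bases before to 50 after the RefSeq start (GRCh38.p14, minus strand), at chr6:3227604-3227903 for TUBB2B and chr6:3157495-3157794 for TUBB2A. Capitals mark GGGCGG (GC box), CCAAT and TATAAA on either strand.
TUBB2B: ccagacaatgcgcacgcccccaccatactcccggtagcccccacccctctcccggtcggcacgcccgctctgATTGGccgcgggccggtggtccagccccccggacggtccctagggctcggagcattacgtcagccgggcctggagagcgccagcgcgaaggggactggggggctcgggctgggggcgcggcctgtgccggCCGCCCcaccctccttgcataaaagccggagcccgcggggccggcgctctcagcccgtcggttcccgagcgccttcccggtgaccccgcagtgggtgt
TUBB2A: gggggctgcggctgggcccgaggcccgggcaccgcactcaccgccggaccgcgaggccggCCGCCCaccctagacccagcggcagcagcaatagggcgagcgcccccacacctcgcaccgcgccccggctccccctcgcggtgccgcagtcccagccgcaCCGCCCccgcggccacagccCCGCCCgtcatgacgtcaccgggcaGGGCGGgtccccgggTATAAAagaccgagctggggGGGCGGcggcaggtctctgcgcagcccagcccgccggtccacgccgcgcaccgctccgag
The TUBB2A window held 5 GC boxes and 1 TATAAA, and the TUBB2B window 1 GC box and 1 CCAAT. RefSeq windows were matched for 7 of the 10 genes, 15 windows in all. No window of STMN2, STMN4 or MAPT was included, so the counts below do not cover these genes. GGGCGG was found in 7 of the 15, against 45.0% of all 35116 windows of this length, CCAAT in 6 (34.6%) and TATAAA in 3 (11.5%). The letters CTA, any 4 bases and TAG, a pattern of the site bound by MEF2 factors, which ERK5 can phosphorylate, were found in 0 of the 15 and in 2.73% of all windows. A match is a description of the letters and not evidence of binding.

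Among the other roles, named genes were those called with the largest change. The lattice-binding gene MAP4, the widespread relative of MAP2 and tau, rose by 0.36 on the log2 scale (adjusted p = 0.00154), which became 0.0681 when WT replicate 1 was left out. CLIP2, which encodes a linker at microtubule plus ends, rose from 1490 and 1381 to 2411 and 2258 (log2 fold change 0.70, adjusted p = 5.10e-05). KATNAL1, a relative of the severing enzyme katanin, rose from 163 and 178 to 291 and 312 (0.82, adjusted p = 7.08e-04), while its relative KATNAL2 had -0.39. TBCA, a chaperone of beta-tubulin, rose by 0.46, and VASH1, which removes the last tyrosine of alpha-tubulin, fell by 0.48. The dynein intermediate chain gene DYNC1I2 (0.45), the kinesin gene KIF1C (0.43) and the dynein regulator NDEL1 (0.38) rose. The calls of KATNAL2, VASH1 and NDEL1 were each lost when a WT library was left out. KATNAL2 then had an adjusted p of 0.227 (WT replicate 1 left out) or 0.230 (WT replicate 2), VASH1 0.179 (WT replicate 1) and NDEL1 0.213 (WT replicate 2).

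TBCB, CKAP2 and MAPRE2 complete the genes named by that rule, with log2 fold changes of 0.36, -0.27 and -0.26. Leaving out WT replicate 1 ended all 3 calls, at adjusted p-values of 0.108, 0.169 and 0.366, and leaving out WT replicate 2 did so at 0.0724, 0.322 and 0.321. For TBCB the adjusted p was 0.0697 when MEK5DD replicate 1 was removed. The protein encoded by TBCB takes part in folding alpha-tubulin, and that of MAPRE2 belongs to the plus-end binding EB family. With no variance trend in limma, 12 of the 15 genes named by that rule lost their call, TUBB2A, TUBA1A and KATNAL1 being the others.

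**Figure D4:**
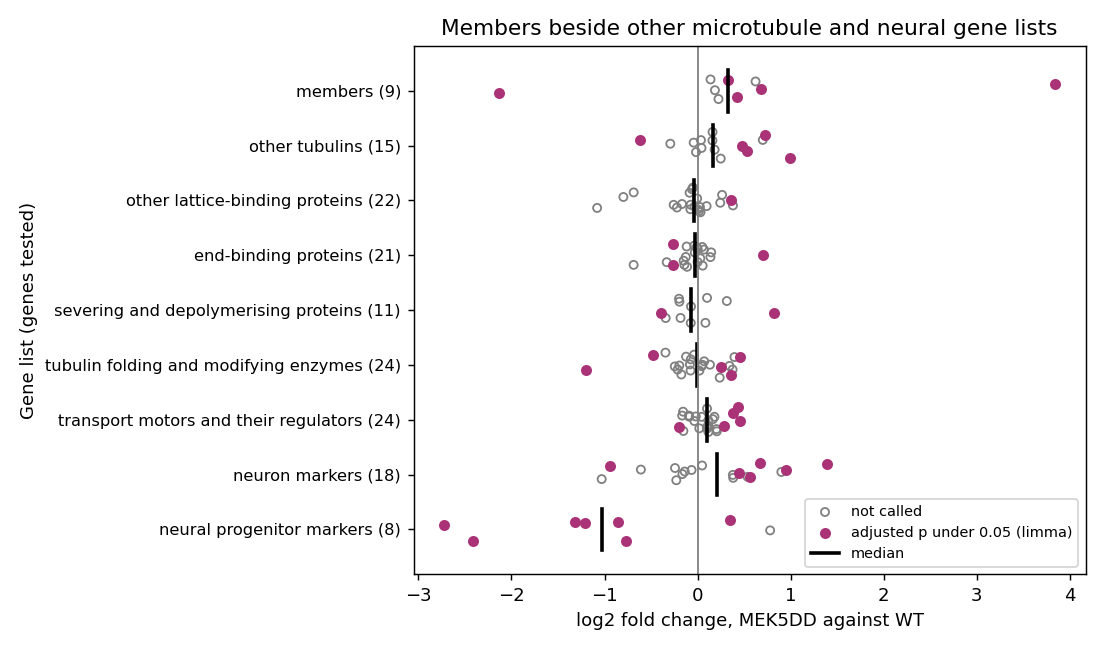
Log2 fold change of MEK5DD against WT for every tested gene of 9 lists (number tested in brackets), with filled points where the adjusted p is under 0.05 and bars at the medians. The tubulins lean to the right (median 0.16) and neural progenitor markers to the left (median -1.03), whereas the end-binding and severing lists centre near 0. All lists were drawn up with earlier results of this contrast known.

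Since several of the 10 genes serve as neuron markers, other markers of neurons and neural progenitors are given beside them. Of 33 neuron markers 20 were listed and 18 tested, and 5 were higher and 1 lower (median 0.21). Over all genes tested 7.69% were higher and 6.47% lower. The list was drawn up with earlier results of this contrast known, so nothing is read from these counts. The neuronal transcription factor genes NEUROG1, NEUROG2, NEUROD1 and MYT1L, and SNAP25, were among the 13 not listed. Every listed gene has a value above 0 in each library, so whether genes not listed had reads in some libraries is not known. The summed normalised count of the listed neuron markers was 8563 and 8551 in WT and 10292 and 10540 in MEK5DD. GAP43, a growth cone protein gene, rose from 277 and 267 to 730 and 699 (log2 fold change 1.39, adjusted p = 1.28e-06). The neuronal intermediate filament gene INA (0.67) and the synaptotagmin gene SYT1 (0.57) rose, the last with an adjusted p of 0.0936 when limma had no variance trend. INSM1, a transcription factor gene of newborn neurons, fell from 156 and 160 to 85.4 and 78.7 (-0.94).

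Of 8 neural progenitor markers tested 6 fell and 1 rose, against 6.47% lower and 7.69% higher over all genes tested. Their median log2 fold change was -1.03. This list too was drawn up with earlier results of this contrast known, so nothing is read from the counts. The marker that rose was NES, an intermediate filament gene, from 6178 and 6346 to 8240 and 7717 (adjusted p = 0.00237, or 0.0731 when WT replicate 1 was left out), named on its values. The summed normalised count of the listed markers, most of it NES, was 10508 and 10694 in WT and 10085 and 9493 in MEK5DD. SOX3, a neural SOX gene, fell from 519 and 551 to 216 and 211, and SIX3, a forebrain gene, from 399 and 387 to 168 and 171. OTX2 fell by 0.85 on the log2 scale and SIX6 had a log2 fold change of -2.72. REST, the repressor of neuronal genes outside neurons, had 1563 and 1693 in WT and 1725 and 2087 in MEK5DD (log2 fold change 0.22, adjusted p = 0.127). In bulk RNA a change in the number of cells of a type and a change in RNA per cell cannot be told apart, and the part of such marker changes in the values of STMN2 and MAP2 was not tested.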

How the data were processed

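Poly(A) RNA of 4 H1 libraries, 2 WT and 2 MEK5DD, was sequenced as paired-end reads. The deposited values are a signal, gene counts normalised by the authors, and a size factor for each library was inferred, since every value was within 0.001 of a whole multiple of its library's smallest one. Per the submitters' processing notes the tools were STAR, Trimmomatic 0.36, DESeq2 1.26.0 and featureCounts 1.5.3, with the build hg38. Annotation and strand setting: not given in the sources used here. Every listed gene has a value above 0 in each library.

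Values were tested in R 4.3.3 with limma 3.58.1, its variance trend switched on, after log2 transformation with a pseudocount of 1. The 15721 genes tested reached 10 in 2 or more libraries. Folds come from that scale, so changes of low genes are understated. Two-sided p-values were adjusted by Benjamini and Hochberg over all of these genes. In data simulated for this comparison over 15499 genes, 79.1% of 1.5-fold, 98.5% of 2-fold and 100% of 4-fold changes were recovered, and 2 of 187 calls were false. Changes were placed only on genes with a mean of at least 50, which leaves out MAP2 and TUBB3. Both groups were given the same scatter, unlike the real pairs, and far fewer genes changed. These rates are therefore not those of the real comparison. Alternatives were pseudocounts, filters, scalings, the variance model, a replicate term, each library left out, and edgeR 4.0.16 and DESeq2 1.42.0 on recovered reads.

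The members and gene lists were chosen with earlier results of these data known. Named were the members, MAP2K5, MAPK7, REST, up to 3 called genes per microtubule list and 4 per neural list with a mean of at least 50 and the largest change, and the 3 genes closest in pattern to the members with the largest rise and fall. MAPK7 had a log2 fold change of 0.15 (adjusted p = 0.398). Genome positions, exon lengths and overlaps came from GENCODE v29 (GRCh38), where 97.8% of symbols were found.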

Additional observations from a re-analysis of the deposited data

How the results depend on the processing

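Calls of the 9 genes were 5 over all libraries and 3 without the mean-variance trend, and ranged from 3 to 7 with 1 library left out. Without the trend 439 of all genes and 4 of the other microtubule genes were called, and with DESeq2 1358 and 13 (13 higher, 0 lower), where 1524 genes had no adjusted p. With 1 library left out the counts ranged from 1157 to 4608 for all genes and from 11 to 44 for the other microtubule genes, against 2226 and 21, and were lowest when a WT library was removed. At the highest, without MEK5DD replicate 2, the other microtubule genes divided into 22 higher and 22 lower, against 14 and 7. Upper-quartile factors changed the division of all calls to 1184 higher and 1230 lower, against 1209 and 1017. STMN2 kept its call in 14 of 14 alternatives and MAP2 in 13 of 13, as its mean is below 50. DCX ranged from -0.078 (without MEK5DD replicate 2) to 0.45 (without MEK5DD replicate 1). The same-numbered libraries' deviations had a correlation of 0.0931 over 12219 genes, so the numbers are not taken as pairs. With the replicate block 3349 of all genes and 31 of the other microtubule genes were called, and 5 of the 9. Depth limits MAP2, TUBB3, DCX and MAPT, which lie at about 10 to 130 reads a library.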

Other observations

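Cofactors of REST and markers of fibroblasts are further groups. Of 12 genes, REST and its cofactors, 1 was higher (the corepressor gene RCOR1, log2 fold change 0.27, adjusted p = 0.0316) and 1 lower (the histone methyltransferase gene EHMT2, -0.28, adjusted p = 0.0199), with a median of -0.04. Both were named on their values, and removing WT replicate 1 or WT replicate 2 ended each call (RCOR1, adjusted p of 0.127 and 0.433; EHMT2, 0.107 and 0.353). Of 10 fibroblast markers 6 were tested, and 3 were higher and 0 lower, against 7.69% of all genes tested higher. Of the 6, 5 had a positive log2 fold change, and the median was 0.37. This list was also drawn up with earlier results of this contrast known. The markers COL3A1, DCN, LUM and POSTN were not listed, and whether they had reads in some libraries is not known. The summed normalised count of the listed ones was 7533 and 7427 in WT and 9251 and 8913 in MEK5DD. The part of these in the values of the microtubule genes was not tested.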
